A study of Mus musculus with 20 samples.

Results

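Ribosome biogenesis and nucleolar genes were followed as a set of 47 named mouse genes of the nucleolus, of ribosomal RNA processing and of RNA polymerase I. The set was given as a list of gene names with no threshold on a measured value, although earlier results of these data were known when it was proposed. Of these 47 genes, 46 were found among the 37620 genes of the count table, and all 46 were among the 17824 genes that passed the filter on low counts. Noc2l was not analysed here.

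Cells make ribosomes in the nucleolus, where RNA polymerase I transcribes the long precursor of the ribosomal RNAs. Small nucleolar ribonucleoproteins then place methyl groups (the box C/D class) or convert uridine to pseudouridine (the box H/ACA class) on that precursor, while separate sets of assembly factors fold, cut and export the small and the large subunit. The transcription factor Myc is known to bind and activate many genes of this pathway, and B lymphomas driven by Myc are a common setting for its study.

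RNA was measured in 20 samples of B220+ cells, which are mostly B cells, of the C57BL/6 background, collected on magnetic beads. Normal spleen gave 4 samples and lymphomas gave 16. The lymphoma genotypes are VavPBcl2/vector (8 samples) and VavPBcl2/Myc (8 samples), where VavPBcl2 is a Bcl2 transgene under the Vav promoter, which is active across blood cells, so both lymphoma groups share that transgene. The labels describe the vector lymphomas as transduced with an empty vector and the Myc lymphomas as transduced with Myc. The comparison of Myc with vector lymphomas therefore asks what differs with Myc on the same Bcl2 background, and the comparison of vector lymphomas with normal spleen asks what differs without added Myc. Ages are not given in the sources used here, and neither is whether replicates were taken from different mice. The p-values therefore reflect only how these samples vary, which may be technical.

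The upstream regions of 6 members are shown because each holds CACGTG, the E-box that Myc binds with its partner Max, and because these 6 had the smallest p-values in Myc against vector among the members that hold it. Each window runs from 250 bases before to 50 bases after the gene's start in RefSeq (build GRCm38.p6), is printed 5′ to 3′ on the strand of the gene, and has the CACGTG in capitals. The windows lie at chr11:82908346-82908645 (minus strand) for Nle1, chr11:3963725-3964024 (plus) for Pes1, chr11:74897830-74898129 (plus) for Tsr1, chr7:45830740-45831039 (minus) for Grwd1, chr6:125131633-125131932 (plus) for Nop2 and chr10:13193088-13193387 (minus) for Ltv1.
Nle1: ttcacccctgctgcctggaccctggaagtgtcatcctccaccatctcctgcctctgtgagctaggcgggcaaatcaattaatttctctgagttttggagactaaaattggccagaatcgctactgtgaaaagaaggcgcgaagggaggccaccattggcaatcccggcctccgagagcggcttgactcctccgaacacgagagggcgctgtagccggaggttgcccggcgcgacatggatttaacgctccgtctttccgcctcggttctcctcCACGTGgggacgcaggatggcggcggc
Pes1: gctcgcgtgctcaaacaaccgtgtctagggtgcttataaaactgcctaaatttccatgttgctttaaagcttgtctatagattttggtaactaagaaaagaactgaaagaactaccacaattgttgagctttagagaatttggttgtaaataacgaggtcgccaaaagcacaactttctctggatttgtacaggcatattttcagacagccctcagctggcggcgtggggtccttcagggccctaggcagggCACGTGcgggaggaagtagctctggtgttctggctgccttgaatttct
Tsr1: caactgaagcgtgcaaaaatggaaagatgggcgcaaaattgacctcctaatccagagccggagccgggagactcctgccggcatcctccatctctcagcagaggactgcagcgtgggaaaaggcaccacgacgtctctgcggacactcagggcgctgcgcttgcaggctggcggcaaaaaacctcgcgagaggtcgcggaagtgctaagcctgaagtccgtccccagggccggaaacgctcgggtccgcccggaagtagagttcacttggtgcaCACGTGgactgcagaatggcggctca
Grwd1: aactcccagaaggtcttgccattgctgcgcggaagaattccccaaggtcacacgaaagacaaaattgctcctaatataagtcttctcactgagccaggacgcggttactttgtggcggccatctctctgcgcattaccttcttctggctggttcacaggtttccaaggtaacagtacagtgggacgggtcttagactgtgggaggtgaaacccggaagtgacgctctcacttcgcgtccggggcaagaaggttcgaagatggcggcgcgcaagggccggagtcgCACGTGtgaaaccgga
Nop2: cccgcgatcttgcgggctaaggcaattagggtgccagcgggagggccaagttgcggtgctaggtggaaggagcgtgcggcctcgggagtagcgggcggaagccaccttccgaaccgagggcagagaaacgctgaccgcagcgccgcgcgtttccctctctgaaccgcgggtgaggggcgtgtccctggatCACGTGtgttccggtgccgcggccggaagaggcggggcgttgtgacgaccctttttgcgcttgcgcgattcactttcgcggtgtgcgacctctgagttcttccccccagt
Ltv1: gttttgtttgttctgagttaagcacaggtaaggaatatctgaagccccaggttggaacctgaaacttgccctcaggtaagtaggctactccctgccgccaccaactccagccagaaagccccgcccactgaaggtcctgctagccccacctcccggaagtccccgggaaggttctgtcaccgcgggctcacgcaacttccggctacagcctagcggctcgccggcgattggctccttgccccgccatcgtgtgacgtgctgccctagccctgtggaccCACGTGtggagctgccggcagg

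In 5 of these 6 windows the E-box began 3 to 35 bases after the annotated start, and in Nop2 it began 60 bases before it. A window was at hand for 41 members, and the other 5 are Npm1, Fbl, Rrp12, Bop1 and Rrs1. Wdr12 and Rrp1b had more than 1 window, and a gene was counted once if any of its windows held the letters. CACGTG, which reads the same on both strands, was found for 10 of the 41 members (24.4%). It was found for 8.09% of 27025 genes with a window and for 11.2% of 11208 genes tested here. Besides the 6 members shown, it was in the windows of Mybbp1a, Utp20, Wdr43 and Imp4. The related letters CACGCG, searched on both strands, were in 13 of 41 (31.7%), against 10.5% and 18.8%, and overlapped a CACGTG in 0 members. Among the members that rose in Myc against vector lymphomas, 9 of 30 with a window held CACGTG, and among those not called 1 of 11 did. Over all 41, the median log2 fold change was 0.60 with CACGTG and 0.78 without it. A match describes these letters in this window and does not show that Myc binds there.

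Between 28.7 M and 56.3 M reads (M, 1e+06) per sample were counted to genes, and a member had 251 to 57528 counts in a sample. The Myc gene ran from 313 to 1646 CPM (counts per M of scaled library size) across the Myc lymphomas. It was at 48.4 to 226 CPM with the empty vector and at 179 to 343 CPM in spleen. Myc replicate 5 was the lowest of its group for Myc and lay below normal replicate 4. This library also had 40.33% of its reads aligned to more than 1 place, against a median of 26% in its group, and an erythroid marker sum of 71640 CPM, against a group median of 16410 CPM. The sample descriptions give run numbers on 4 instruments, and the numbers of each instrument were split into earlier and later ones. Number 85 is thus in the later set for vector replicate 2 and in the earlier set for Myc replicate 8, on another instrument. By this split, 7 samples (normal replicate 1 and vector replicates 1 to 6) came from later sequencing runs and 13, all 8 Myc lymphomas among them, from earlier ones. Run and group therefore overlap, and values are also given for the earlier runs alone (8 Myc, 2 vector and 3 normal samples) and from a fit with the run set as a term.

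Markers of other cells moved with the groups, and some of them with the sequencing run too. The 8 B cell markers summed to 1722 to 5414 CPM with Myc, 6034 to 9575 CPM with the vector and 6432 to 7553 CPM in spleen, and 7 of the 8 were lower in Myc than in vector lymphomas. The 8 NK cell markers summed to 182 to 661 CPM in Myc and 53.5 to 91.7 in vector lymphomas (7 of 8 higher), and the 8 neutrophil markers to 1657 to 16550 and 55 to 5818 (5 of 8 higher). Of 8 markers each, 3 T cell markers were higher and 2 lower, 4 plasmacytoid dendritic cell markers higher and 2 lower, 1 macrophage marker higher and 2 lower, and 1 erythroid marker higher. No marker was at 0 in any group. Over all genes tested, 26.6% were higher and 21.9% lower. Within the earlier runs 4 B cell markers were lower, 3 NK cell markers higher and 0 neutrophil markers called (median log2 fold change 0.78). With the run term 5 B cell markers were lower, 6 NK cell markers higher and 0 neutrophil markers called. The neutrophil markers summed to 1688 to 5818 CPM in vector lymphomas of earlier runs and 55 to 920.6 CPM in those of later runs. The 13 mitochondrially encoded genes were all higher in Myc than in vector lymphomas over all samples and 0 of 13 were within the earlier runs, and they summed to 3114 to 7845 CPM in the vector lymphomas of later runs and 62480 to 78100 in those of earlier runs. The part of these markers in the results below was not tested, and in such bulk samples fewer cells of a type and less RNA per cell cannot be told apart.

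Ribosome biogenesis genes were higher in Myc than in vector lymphomas and no member was called between vector lymphomas and normal B cells. In Myc against vector lymphomas 34 of the 46 members rose, 0 fell and 12 were not called, with edgeR's quasi-likelihood test and a Benjamini-Hochberg adjusted p under 0.05 over all genes tested. At an unadjusted p under 0.05, 35 were higher and 0 lower, and DESeq2 called 34 higher and 0 lower. Across all genes tested, 26.6% were higher and 21.9% lower. The median log2 fold change was 0.71 over the members and 0.09 over all genes tested, and 44 of 46 members had a positive value. In 16 members every Myc lymphoma lay above every vector lymphoma, while 5.12% of all genes did so. Without Myc replicate 5, 38 of 46 rose, with a median of 0.67. No share over all genes was computed for unadjusted p, DESeq2 or left-out libraries, here or in the other comparisons. Whether such changes in the counts are particular to the members was not tested. The mean log2 CPM over the 46 members was 6.37 to 6.91 in the Myc lymphomas, against 5.56 to 5.96 with the vector and 5.78 to 6.06 in spleen, so that the 8 Myc lymphomas, replicate 5 among them, lay above the other 12 samples.

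**Figure D1:**
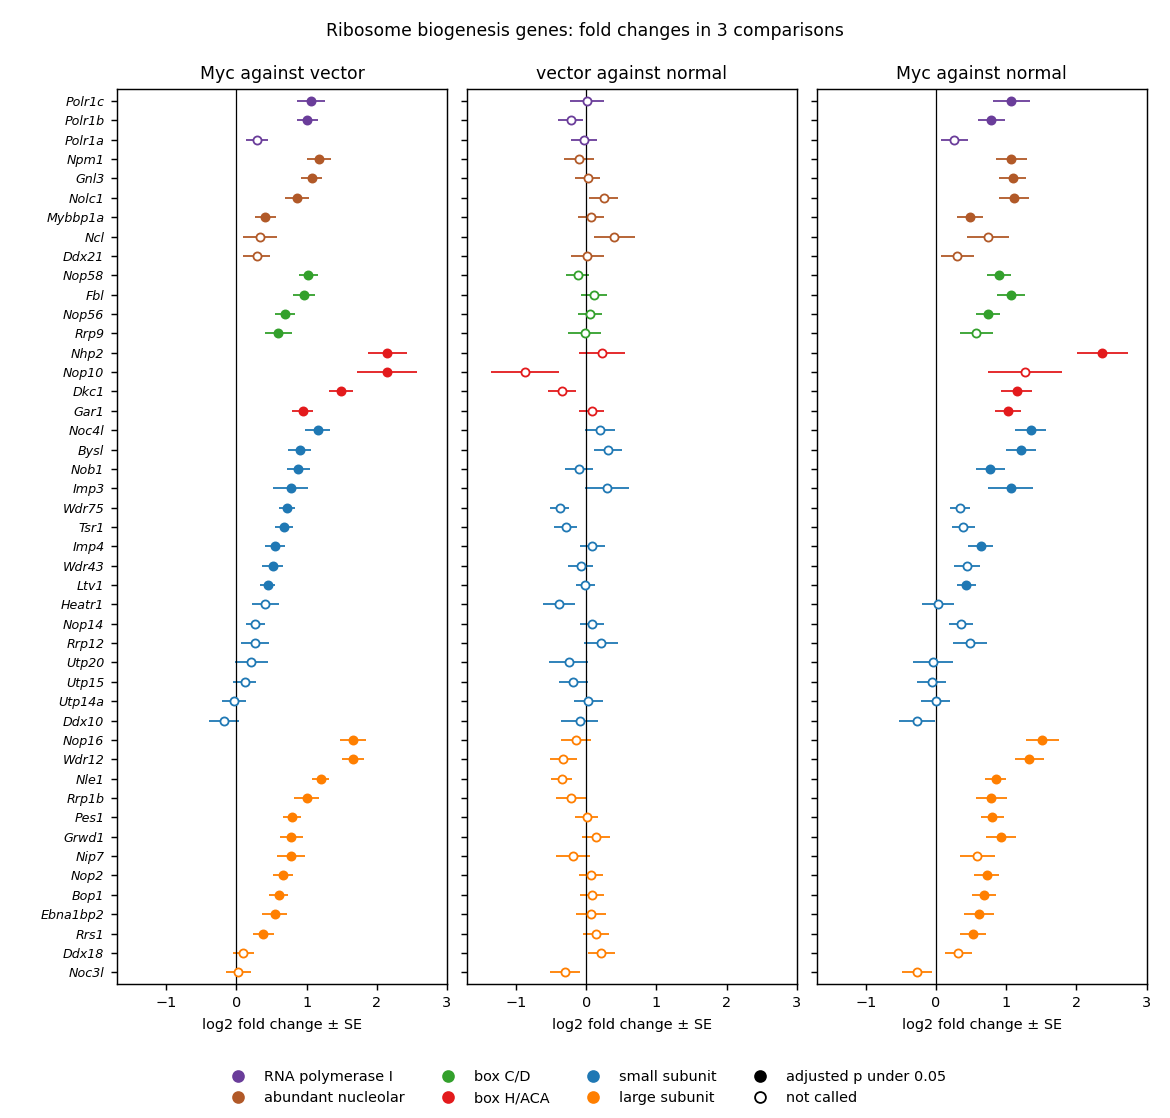
Log2 fold changes (x axis, ± SE) of the 46 members, 1 row a gene, in the 3 comparisons, coloured by role and ordered within a role by Myc against vector; filled points passed an adjusted p under 0.05 in edgeR's quasi-likelihood test. In Myc against vector 34 points are filled, all right of 0, in vector against normal 0 are filled, and in Myc against normal 28 are.

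RNA polymerase I makes the ribosomal RNA precursor, and 2 of its 3 members rose in Myc against vector lymphomas. In brackets, here and for the other members, stand the log2 fold change and adjusted p over all samples, followed by both values from the earlier runs alone. Polr1b (ENSMUSG00000027395), the second-largest subunit, was at 67.7, 44.2, 52.3 and 51.8 CPM in normal replicates 1 to 4, 36.9 to 56.8 CPM in vector lymphomas (median 45.4) and 52.2 to 120.5 CPM in Myc lymphomas (median 95.1). All Myc lymphomas except replicate 5, at 52.2 CPM, lay above every vector lymphoma, a 2.02-fold rise (1.01 ± 0.15 SE on the log2 scale, adjusted p = 2.35e-05; 1.31 and 0.0156 in earlier runs). Polr1c (ENSMUSG00000067148), a subunit shared with RNA polymerase III, was at 55.1, 46.5, 55.5 and 42.4 CPM in normal B cells, 41.5 to 64.2 CPM in vector lymphomas (median 49.3) and 73.5 to 224 CPM in Myc lymphomas (median 85.6). The lymphoma groups did not overlap and it rose 2.09-fold (1.06 ± 0.20 SE on the log2 scale, adjusted p = 0.000303), a call lost within the earlier runs (1.04, adjusted p = 0.135); the highest value, 224 CPM, came from Myc replicate 5. Polr1a (ENSMUSG00000049553), the largest and catalytic subunit, had 123, 87.0, 93.4 and 86.1 CPM in normal B cells, 64.1 to 116 CPM in vector lymphomas (median 101) and 68.2 to 144 CPM in Myc lymphomas (median 122). The lymphoma groups overlapped and it was not called (0.29 ± 0.16 SE on the log2 scale, adjusted p = 0.13); it was called with the run term (0.77, adjusted p = 0.00601) and without Myc replicate 5 (0.38, adjusted p = 0.0211).

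Of the 6 abundant nucleolar proteins, 4 rose. Npm1 (ENSMUSG00000057113), nucleophosmin, a chaperone that takes part in ribosome export, was at 361, 298, 291 and 248 CPM in normal B cells, 229 to 340.4 CPM in vector lymphomas (median 278) and 458 to 1008 CPM in Myc lymphomas (median 572). Every Myc lymphoma lay above every other sample, and it rose 2.26-fold (1.18 ± 0.17 SE on the log2 scale, adjusted p = 2.2e-05; 1.16 and 0.0649 in earlier runs). Npm1 has near-identical pseudogenes, and reads aligned to more than 1 place stayed out of the gene counts, so its level is uncertain. Gnl3 (ENSMUSG00000042354), nucleostemin, a GTPase of the nucleolus, was at 62.6, 45.5, 51.6 and 57.1 CPM in normal B cells, 45.1 to 73.9 CPM in vector lymphomas (median 53.5) and 89.1 to 175 CPM in Myc lymphomas (median 108). It too separated Myc lymphomas from the other samples and rose 2.10-fold (1.07 ± 0.15 SE on the log2 scale, adjusted p = 1.09e-05; 1.32 and 0.0142 in earlier runs).

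Nolc1, a chaperone of small nucleolar ribonucleoproteins, was at 115, 96.3, 93.5 and 107 CPM in normal B cells, 98.3 to 141 CPM in vector lymphomas (median 124) and 136 to 402 CPM in Myc lymphomas (median 207). The 402 CPM came from Myc replicate 1, and Myc replicate 4 at 136 CPM lay within the vector lymphomas; the rise was 1.82-fold (0.86 ± 0.17 SE on the log2 scale, adjusted p = 0.000308; 1.18 and 0.055 in earlier runs). Mybbp1a, a Myb-binding protein of the nucleolus, was at 358, 257, 284 and 281 CPM in normal B cells, 239 to 359.5 CPM in vector lymphomas (median 319.6) and 263 to 607 CPM in Myc lymphomas (median 419), and rose 1.33-fold (0.41 ± 0.15 SE on the log2 scale, adjusted p = 0.0304; 0.77 and 0.148 in earlier runs). That call was lost without normal replicate 2, 3 or 4, vector replicate 7 or 8, or Myc replicate 1, 3, 6 or 7 (adjusted p = 0.0527 to 0.0867). Nucleolin (Ncl, ENSMUSG00000026234), which binds ribosomal RNA precursors, was at 862, 473, 420.1 and 489 CPM in normal B cells, 499.9 to 979.8 CPM in vector lymphomas (median 708) and 508 to 1529 CPM in Myc lymphomas (median 963). Of the 8 Myc lymphomas 4 lay above every vector lymphoma, the others lay within the vector range, and Ncl was not called (0.33 ± 0.24 SE on the log2 scale, adjusted p = 0.252). In the 7 later-run samples Ncl was at 562 to 980 CPM and in the vector lymphomas of earlier runs at 547 and 500, and with the run term its value was 0.90 (adjusted p = 0.0357), a call. Ddx21, a helicase that links RNA polymerase I to processing, was not called either (0.29 ± 0.19 SE on the log2 scale, adjusted p = 0.217), and was called without Myc replicate 5 (0.40, adjusted p = 0.0325).

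**Figure D2:**
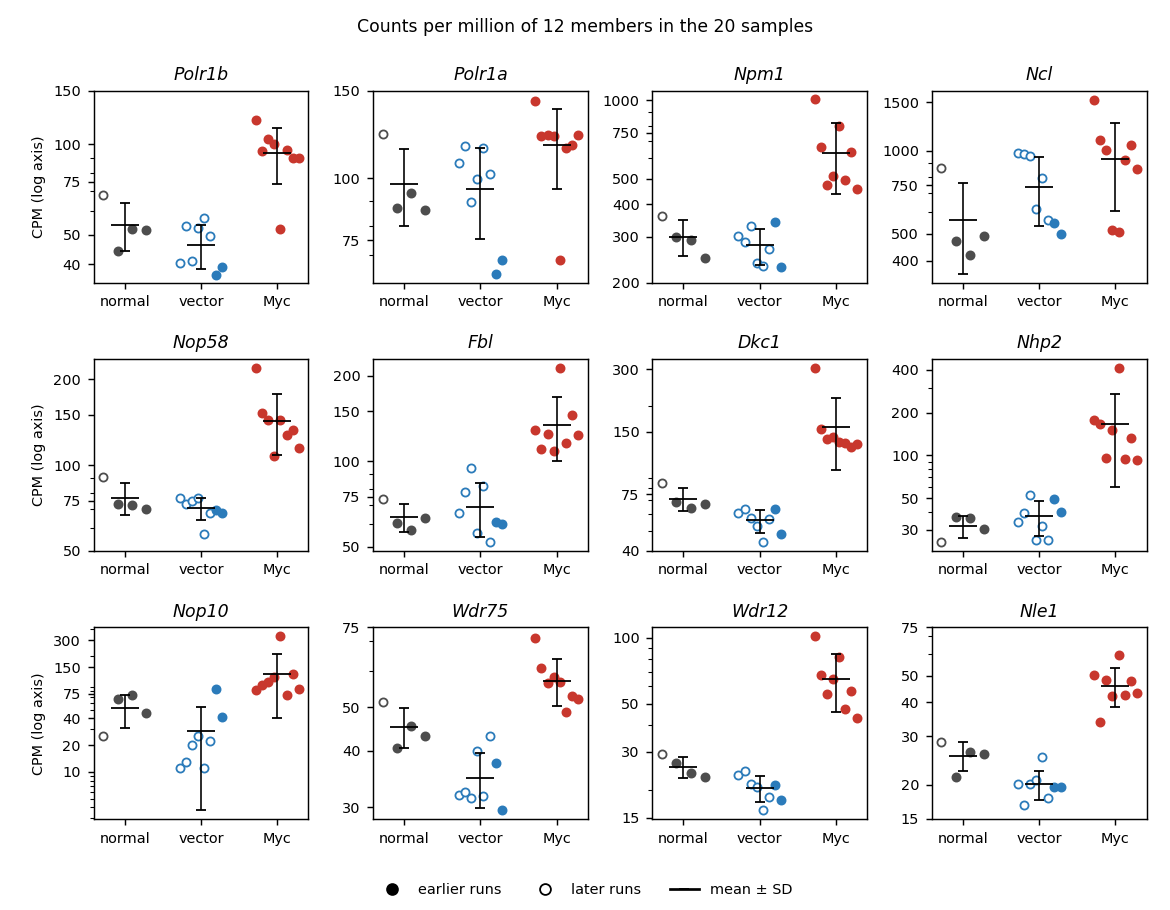
CPM (y axis, log scale) of 12 members in each normal, vector and Myc sample, with the mean ± SD of each group in black; filled points are earlier and open points later sequencing runs. For Nle1 the 8 Myc lymphomas sit between 34.0 and 59.7 CPM, above all 12 other samples, while for Ncl the lymphoma groups overlap.

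The 4 members of the box C/D particles, which direct methylation of ribosomal RNA, all rose. Nop58, a scaffold protein, was at 90.98, 73.3, 72.7 and 69.8 CPM in normal B cells, 57.2 to 76.4 CPM in vector lymphomas (median 71.3) and 108 to 220.1 CPM in Myc lymphomas (median 138), and rose 2.03-fold with no overlap between Myc lymphomas and the other samples (1.02 ± 0.14 SE on the log2 scale, adjusted p = 5.64e-06; 1.07 and 0.0333 in earlier runs). Fibrillarin (Fbl), the methyltransferase itself, was at 73.8, 60.5, 57.3 and 63.4 CPM in normal B cells, 52.0 to 94.7 CPM in vector lymphomas (median 63.7) and 109 to 213 CPM in Myc lymphomas (median 124). It also separated the groups and rose 1.95-fold (0.96 ± 0.16 SE on the log2 scale, adjusted p = 5.54e-05; 1.15 and 0.018 in earlier runs), with its highest value in Myc replicate 5. Nop56, the partner scaffold of Nop58, was at 166, 164, 169 and 169 CPM in normal B cells, 131 to 227 CPM in vector lymphomas (median 170.3) and 199 to 357 CPM in Myc lymphomas (median 277). Vector replicate 5 at 227 CPM lay above Myc replicate 4 at 199, and the rise was 1.61-fold (0.69 ± 0.14 SE on the log2 scale, adjusted p = 0.000423; 0.90 and 0.0551 in earlier runs). Rrp9, a protein of the U3 particle, rose 1.51-fold (0.60 ± 0.19 SE on the log2 scale, adjusted p = 0.0126).

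The 4 core proteins of the box H/ACA particles, which direct pseudouridylation and are also part of telomerase, had the highest median of the 6 role groups (log2 fold change 1.82), and all 4 rose. Dyskerin (Dkc1, ENSMUSG00000031403), the pseudouridine synthase, was at 84.5, 68.6, 64.2 and 67.4 CPM in normal B cells, 44.1 to 63.5 CPM in vector lymphomas (median 57.5) and 127 to 304 CPM in Myc lymphomas (median 136). Each Myc lymphoma was above every other sample, with 304 CPM in Myc replicate 1 and 154.5 CPM in the next, and Dkc1 rose 2.82-fold (1.49 ± 0.17 SE on the log2 scale, adjusted p = 9.85e-07; 1.52 and 0.0226 in earlier runs). Nhp2 (ENSMUSG00000001056) binds the guide RNA and was at 24.6, 36.8, 36.2 and 30.4 CPM in normal B cells, 25.3 to 53.1 CPM in vector lymphomas (median 36.9) and 93.6 to 413 CPM in Myc lymphomas (median 142). It rose 4.44-fold without overlap (2.15 ± 0.28 SE on the log2 scale, adjusted p = 4.11e-06; 1.90 and 0.0388 in earlier runs). The highest Nhp2 value was in Myc replicate 5, and the next was 176 CPM in Myc replicate 1.

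Gar1, which helps release the substrate, was at 29.5, 22.6, 27.4 and 25.8 CPM in normal B cells, 23.1 to 36.7 CPM in vector lymphomas (median 28.1) and 33.9 to 76.1 CPM in Myc lymphomas (median 52.7), and rose 1.92-fold (0.94 ± 0.14 SE on the log2 scale, adjusted p = 3.25e-05; 1.06 and 0.0261 in earlier runs). Myc replicate 4 was the lowest of its group and lay below vector replicate 3. Nop10 (ENSMUSG00000027133), the smallest of the core proteins, was at 25.4, 65.3, 72.2 and 46.1 CPM in normal B cells, 11.0 to 84.8 CPM in vector lymphomas (median 21.0) and 72.3 to 334 CPM in Myc lymphomas (median 97.9). Its level went with the sequencing run: the 6 vector lymphomas of later runs held 11.0 to 25.0 CPM, and those of earlier runs 84.8 and 41.2. Over all samples Nop10 rose 4.43-fold (2.15 ± 0.42 SE on the log2 scale, adjusted p = 0.00038), but within the earlier runs the log2 fold change was 1.00 and not called (adjusted p = 0.268), likewise with the run term (1.16, 0.0557).

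Of the 16 factors of small subunit assembly 9 rose, with a median log2 fold change of 0.48. Wdr75, a protein of the processome that binds the nascent precursor, was at 51.4, 40.6, 45.4 and 43.0 CPM in normal B cells, 29.5 to 43.2 CPM in vector lymphomas (median 32.2) and 48.9 to 71.1 CPM in Myc lymphomas (median 56.6). The lymphoma groups did not overlap, and it rose 1.65-fold (0.72 ± 0.11 SE on the log2 scale, adjusted p = 3.97e-05; 0.78 and 0.0449 in earlier runs). Noc4l, known in yeast as a partner of Nop14, was at 26.7, 28.4, 25.0 and 26.6 CPM in normal B cells, 24.4 to 39.7 CPM in vector lymphomas (median 28.1) and 48.1 to 116 CPM in Myc lymphomas (median 60.9). It rose 2.23-fold, each Myc lymphoma above each other sample (1.16 ± 0.18 SE on the log2 scale, adjusted p = 2.76e-05; 1.04 and 0.0782 in earlier runs). The other 7 that rose were Bysl, Nob1 (the nuclease that trims the end of 18S ribosomal RNA), Imp3 and Imp4 (partners of the U3 particle), Tsr1, Wdr43 and Ltv1, with log2 fold changes from 0.44 (Ltv1) to 0.90 (Bysl).

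The remaining 7 small subunit factors were not called. Heatr1 (ENSMUSG00000050244), which binds the nascent precursor and is among the longest proteins of the processome, was at 132, 87.3, 106 and 93.6 CPM in normal B cells, 60.5 to 97.2 CPM in vector lymphomas (median 85.96) and 39.1 to 137 CPM in Myc lymphomas (median 112). Its 39.1 CPM in Myc replicate 5 was the lowest value of the 20 samples, the groups overlapped, and it was not called (0.41 ± 0.19 SE on the log2 scale, adjusted p = 0.0779); without that library it was (0.54, adjusted p = 0.00139). Nop14 was at 0.27 ± 0.14 (adjusted p = 0.111; 0.33 and 0.0433, a call, without Myc replicate 5), Rrp12, an export factor, at 0.27 ± 0.20 (adjusted p = 0.27) and Utp20, a large scaffold, at 0.21 ± 0.23 (adjusted p = 0.464). Utp15 was at 0.12 ± 0.17 (adjusted p = 0.575), Utp14a at -0.04 ± 0.17 (adjusted p = 0.867) and Ddx10, a helicase, at -0.17 ± 0.22 (adjusted p = 0.522). Within the earlier runs all 7 had positive log2 fold changes, from 0.30 (Ddx10) to 0.95 (Rrp12), and none was called there. With the run term Rrp12 (0.88, adjusted p = 0.011) and Nop14 (0.57, adjusted p = 0.0291) were called.

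Of the 13 factors of large subunit assembly 11 rose, with a median log2 fold change of 0.78. Pes1, Bop1 and Wdr12 form a complex that cells need to mature the large subunit RNA. Wdr12 (ENSMUSG00000026019) was at 29.2, 26.6, 24.0 and 22.9 CPM in normal B cells, 16.2 to 24.4 CPM in vector lymphomas (median 20.9) and 42.9 to 102 CPM in Myc lymphomas (median 60.9). Every Myc lymphoma lay above every other sample, and Wdr12 rose 3.16-fold (1.66 ± 0.16 SE on the log2 scale, adjusted p = 1.41e-07; 1.74 and 0.00651 in earlier runs). Pes1 was at 107, 111, 132 and 100.4 CPM in normal B cells, 93.4 to 123 CPM in vector lymphomas (median 117) and 129.6 to 265 CPM in Myc lymphomas (median 195), and rose 1.73-fold with no overlap between the lymphoma groups (0.79 ± 0.13 SE on the log2 scale, adjusted p = 8.5e-05; 0.91 and 0.0715 in earlier runs). Bop1 was at 68.2, 55.8, 63.6 and 58.9 CPM in normal B cells, 56.0 to 81.3 CPM in vector lymphomas (median 64.3) and 78.2 to 132 CPM in Myc lymphomas (median 95.8). Its lymphoma groups overlapped, and it rose 1.52-fold (0.60 ± 0.13 SE on the log2 scale, adjusted p = 0.00103; 0.80 and 0.0825 in earlier runs).

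Nle1 (ENSMUSG00000020692), known in yeast to help release factors from the maturing large subunit, was at 28.6, 21.3, 26.4 and 26.0 CPM in normal B cells, 16.9 to 25.3 CPM in vector lymphomas (median 19.9) and 34.0 to 59.7 CPM in Myc lymphomas (median 45.6). It rose 2.29-fold with no overlap (1.20 ± 0.12 SE on the log2 scale, adjusted p = 2.81e-07; 1.24 and 0.00683 in earlier runs), and its E-box is the first of those printed above. Nop2, a methyltransferase of the large subunit RNA, was at 81.1, 68.1, 77.6 and 64.0 CPM in normal B cells, 55.1 to 102 CPM in vector lymphomas (median 76.5) and 99.6 to 162 CPM in Myc lymphomas (median 118). Vector replicate 5 at 102.0 CPM lay above Myc replicate 5 at 99.6, and Nop2 rose 1.58-fold (0.66 ± 0.14 SE on the log2 scale, adjusted p = 0.00073; 1.12 and 0.0144 in earlier runs). The other 6 that rose were Nop16, Rrp1b, Grwd1, Nip7, Ebna1bp2 and Rrs1, from 0.38 (Rrs1, adjusted p = 0.0372) to 1.66 (Nop16, adjusted p = 6.61e-07). Ddx18, a helicase, was at 0.10 ± 0.15 (adjusted p = 0.613) and Noc3l at 0.03 ± 0.18 (adjusted p = 0.916), and neither was called.

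The rise was present within the earlier runs with fewer calls. There 16 of 46 members were higher and 0 lower in Myc against vector lymphomas (n = 8 and 2). Of all genes tested there, 2.97% were higher and 814 of 18505 lower. All 46 members had a positive value, with a median log2 fold change of 0.90. With the run set as a term 32 members rose and 0 fell, with a median of 0.89, while 9.2% of all genes rose and 1742 of 17824 fell. By role, 1 of 3 RNA polymerase I genes, 1 of 6 abundant nucleolar genes, 2 of 4 box C/D, 3 of 4 box H/ACA, 3 of 16 small subunit and 6 of 13 large subunit genes were called within the earlier runs. The role medians there ran from 0.76 (small subunit) to 1.29 (box H/ACA), a narrower span than the 0.48 to 1.82 over all samples. The 2 vector lymphomas of earlier runs share a title prefix with no other sample, so run and prefix cannot be told apart among them.

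**Figure D3:**
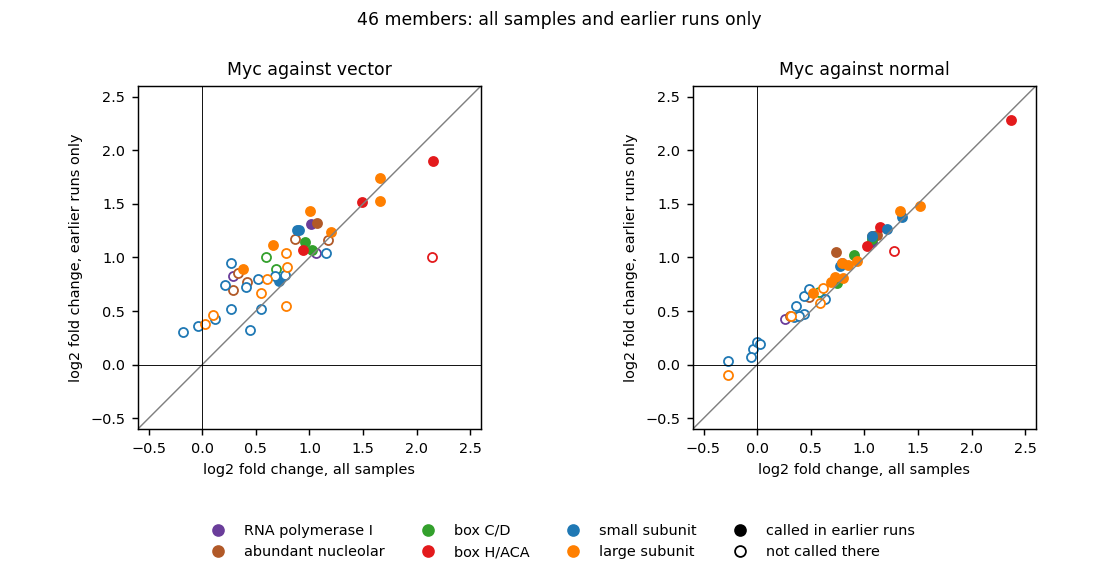
Log2 fold change of each of the 46 members within the earlier runs (y axis) against that over all samples (x axis), in Myc against vector (left) and Myc against normal (right); filled points were called within the earlier runs and the line marks equal values. In the left panel all 46 points lie above 0 on the y axis, and Nop10 lies far below the line, at 2.15 over all samples and 1.00 within the earlier runs.

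Between vector lymphomas and normal B cells no member was called. With edgeR's quasi-likelihood test 0 of 46 rose and 0 fell, while 7.46% of all genes tested rose and 3.36% fell. At an unadjusted p under 0.05, 0 were higher and 2 lower, and DESeq2 called 0 and 0. A p that misses the threshold does not show that the levels were equal. The members' median log2 fold change was 0.01, with 24 positive values and a range from -0.87 (Nop10) to 0.40 (Ncl); over all genes it was -0.03. Of the 46, 0 had every vector lymphoma above every normal sample, against 7.33% of all genes, and 2, Dkc1 and Tsr1, had every vector lymphoma below, against 5.91%. Dkc1 was at -0.35 ± 0.20 (adjusted p = 0.308) and Tsr1 at -0.29 ± 0.16 (adjusted p = 0.268). In the same comparison 7 of 8 erythroid markers were higher and 6 of 8 NK cell markers lower over all samples. Within the earlier runs 0 of 8 were called in either list, with medians of 1.62 and -1.19. With the run term 0 erythroid markers were called and 5 NK cell markers were lower. The erythroid markers summed to 11950 to 17560 CPM in vector lymphomas of later runs and 3310 to 4864 CPM in those of earlier runs. The part of these markers was not tested. The smallest adjusted p among members was that of Wdr75 (-0.38 ± 0.14, adjusted p = 0.0806). Without vector replicate 6 it was called lower (-0.43, adjusted p = 0.0497), and without vector replicate 7 Nop10 was (-1.35, adjusted p = 0.0351).

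Within the earlier runs 0 members rose and 0 fell, where 0.621% of all genes rose and 0.0432% fell, and the median of the members was -0.13. The run term gave 0 and 0 as well, against 4.86% and 2.01% of all genes, and a median of -0.15. Normal replicate 1, the normal sample of the later runs, was the highest of its group in mean log2 CPM over the members (6.06, against 5.78 to 5.85). The vector lymphomas of later runs were at 5.76 to 5.96 and those of earlier runs at 5.56 and 5.75. Vector replicate 6 of the later runs and vector replicate 7 of the earlier runs were nearly equal (5.755 and 5.754). Scaled by library totals alone, Nle1 (-0.50, adjusted p = 0.0337) and Wdr75 (-0.52, adjusted p = 0.0447) fell, and the median of all genes moved from -0.03 to -0.18 with that of the members from 0.01 to -0.14.

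Against normal B cells, 28 of 46 members rose in Myc lymphomas and 0 fell, where 21.5% of all genes tested rose and 17.9% fell. At an unadjusted p under 0.05, 35 were higher and 0 lower, and DESeq2 called 35 and 0. This comparison shares its Myc lymphomas with the one against vector, and its normal samples with the one above. The median log2 fold change was 0.73 over the members and 0.08 over all genes, and 22 members had every Myc lymphoma above every normal sample, against 13.1% of all genes. Within the earlier runs (n = 8 and 3) 25 rose, against 12.7% of all genes, with a median of 0.79, and with the run term 36 rose, against 20.6%. Without Myc replicate 5, 34 rose over all samples, a setting for which no share over all genes was computed. Markers of other cells moved in this comparison too, where 8 of 8 neutrophil markers were higher (median log2 fold change 3.99), 8 of 8 erythroid markers higher (median 3.98), 5 of 8 NK cell markers higher and 1 lower, and 6 of 8 B cell markers lower (median -1.35). The erythroid markers summed to 5078 to 71640 CPM in Myc lymphomas and 204 to 3030 CPM in spleen, and the neutrophil markers to 1657 to 16550 CPM and 79.7 to 906 CPM. Their part in the result was not tested.

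By role, Nhp2 (2.37 ± 0.37 SE on the log2 scale, adjusted p = 6.59e-05), Nop16 (1.51 ± 0.23, 6.62e-05), Noc4l (1.35 ± 0.23, 0.000146) and Wdr12 (1.33 ± 0.20, 5.87e-05) were furthest up among those called. RNA polymerase I had Polr1c at 1.07 ± 0.26 and Polr1b at 0.79 ± 0.19 (both called) and Polr1a at 0.26 ± 0.19 (adjusted p = 0.292). Among abundant nucleolar genes, Nolc1 (1.12 ± 0.21), Gnl3 (1.09 ± 0.19), Npm1 (1.07 ± 0.22) and Mybbp1a (0.49 ± 0.19, adjusted p = 0.0479) rose. The Mybbp1a call was lost when normal replicate 2, 3 or 4, vector replicate 1, 2, 3, 4, 5 or 6, or Myc replicate 1, 3, 4, 6 or 7 was left out (adjusted p = 0.0519 to 0.138). Ncl stood at 0.74 ± 0.30 (adjusted p = 0.0559) and was called within the earlier runs (1.05, 0.042) and without normal replicate 1, Myc replicate 4 or Myc replicate 5 (adjusted p = 0.0177 to 0.0311). Fbl, Nop58 and Nop56 rose by 1.07, 0.90 and 0.74 on the log2 scale, and Dkc1 and Gar1 by 1.15 and 1.02, while Nop10 was not called (1.27 ± 0.53, adjusted p = 0.0596; 0.0242 without vector replicate 7). Of the small subunit factors 6 of 16 rose, and of the large subunit factors 10 of 13. Wdr75, called against vector lymphomas, was at 0.34 ± 0.14 (adjusted p = 0.0554, with 0.0487 without normal replicate 1 and 0.0273 without Myc replicate 5) here, and Heatr1 at 0.03 ± 0.23 (adjusted p = 0.925). DESeq2 called Ncl (adjusted p = 0.0328), Nop10 (0.0245) and Wdr75 (0.0247). The run term called Ncl (adjusted p = 0.00904), Wdr75 (0.0426) and Polr1a (0.0439). Nop10 was also called with only the 2 groups compared (adjusted p = 0.029) and Wdr75 with RLE scaling (0.0455).

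Genes whose proteins work in 1 complex did not all move by the same amount. For 16 pairs of partner genes, the log2 ratio of their counts within each sample was compared between groups with an exact two-sided permutation test, adjusted over the 32 tests of both comparisons. Such a ratio does not depend on the scaling between libraries, but a difference in it shows unequal change and not which gene moved. Pairs of unrelated genes were not compared, so the counts of pairs have no background share. Of single genes tested, 26.6% were higher and 21.9% lower in Myc against vector lymphomas. Partners also differ in the length of their coding sequence (2121 nucleotides for Ncl, 876 for Npm1), and its part was not tested. In Myc against vector lymphomas 5 of 16 pairs differed at an adjusted p under 0.05, and 11 of 16 had an unadjusted p under 0.05. In vector against normal 0 of 16 differed in that permutation test, and 4 of 16 had an unadjusted p under 0.05. There Wdr12 to Bop1 (difference -0.41, adjusted p = 0.0554, exact permutation test) passed the threshold without vector replicate 2, 3, 5 or 7 or Myc replicate 1 (adjusted p = 0.0194 to 0.0485), Dkc1 to Gar1 without vector replicate 3, 5 or 6 (adjusted p = 0.0323 to 0.0485) and Nhp2 to Nop10 without vector replicate 7 (adjusted p = 0.0242).

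Wdr12 rose further than its partners. The log2 ratio of Wdr12 to Bop1 was -1.22, -1.07, -1.41 and -1.36 in normal replicates 1 to 4, -2.17 to -1.43 in vector lymphomas (median -1.60) and -1.04 to -0.02 in Myc lymphomas (median -0.72). The lymphoma groups did not overlap, and the means differed by 1.03 (adjusted p = 0.00166, exact permutation test; 0.92 in earlier runs). For Wdr12 to Pes1 the ratio was -2.88 to -2.14 in vector and -2.04 to -0.94 in Myc lymphomas, a difference of 0.85 without overlap (adjusted p = 0.00166, exact permutation test; 0.80 in earlier runs). The ratio of Bop1 to Pes1 differed by -0.18 and was not called (adjusted p = 0.0970, exact permutation test).

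The 2 largest subunits of RNA polymerase I also changed their ratio. Polr1a to Polr1b was 0.86, 0.98, 0.84 and 0.73 on the log2 scale in normal replicates 1 to 4, 0.80 to 1.41 in vector lymphomas (median 1.03) and 0.24 to 0.44 in Myc lymphomas (median 0.32). All 8 Myc lymphomas, replicate 5 at 0.39 among them, lay below the other 12 samples, and the means of the lymphoma groups differed by -0.70 (adjusted p = 0.00166, exact permutation test; -0.47 in earlier runs). The unadjusted p of 0.000155 is the smallest that the 12870 arrangements of 8 against 8 allow, and both Wdr12 pairs above had it too. The SD of the ratio was 0.08 in Myc lymphomas, while that of Polr1a to Polr1c was 0.80 there. The ratio of Polr1a to Polr1c was -1.71 in Myc replicate 5 and 0.165 to 0.724 in the other Myc lymphomas.

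Nhp2 rose further than Gar1. Their log2 ratio was -0.02 to 0.80 in vector and 0.74 to 2.44 in Myc lymphomas, a difference of 1.10 (adjusted p = 0.00373, exact permutation test; 0.69 in earlier runs), with the highest value in Myc replicate 5. The ratio of Ncl to Npm1 was 0.53 to 1.255 in normal B cells (median 0.82). It was 0.68 to 1.78 in vector (median 1.45) and -0.64 to 1.09 in Myc lymphomas (median 0.725). The lymphoma means differed by -0.84 (adjusted p = 0.0169, exact permutation test), with -0.37 in earlier runs, and the ratio carries the uncertainty of Npm1. Vector lymphomas of later runs were at 1.06 to 1.78 and those of earlier runs at 0.68 and 1.13. The lowest Myc value was in Myc replicate 5, and the next was 0.01. The pairs of Fbl, Nop56 and Nop58 were not called, with differences from -0.31 to 0.27. Pairs that hold Nop10 or Polr1c had group SDs of up to 1.09 and were not called. Myc replicate 5 held the lowest Myc value of the Polr1c pairs (-1.71 for Polr1a to Polr1c, -2.10 for Polr1b to Polr1c).

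**Figure D4:**
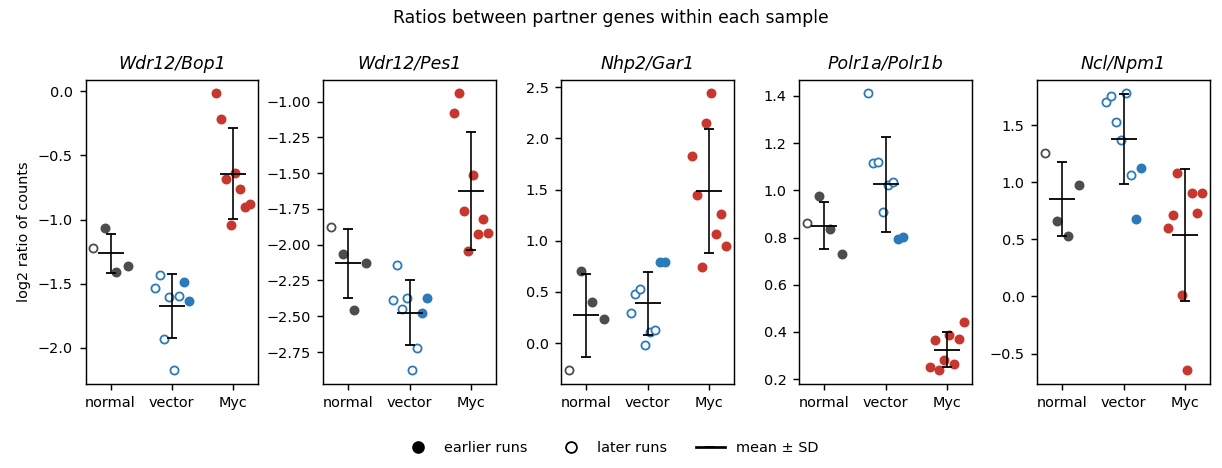
Log2 ratio of the counts of 2 partner genes (y axis) in each normal, vector and Myc sample for the 5 pairs that differed between Myc and vector lymphomas, with group mean ± SD in black; filled points are earlier and open points later runs. The Myc lymphomas lie above all vector lymphomas for both Wdr12 pairs and below all of them for Polr1a/Polr1b.

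The fold change went with the length of the coding sequence, a feature not used to choose the members. Coding length, from the longest annotated coding sequence of each gene in GENCODE vM21, ran from 192 nucleotides (Nop10) to 8367 (Utp20). The split by length was chosen after the values were seen. Across the 46 members, which share the same libraries, the Spearman correlation of coding length with the log2 fold change in Myc against vector lymphomas was -0.60, and across 13948 genes tested it was -0.28. Of the 23 shorter members (192 to 1608 nucleotides) 22 rose, with a median of 0.94, and of the 23 longer ones (1614 to 8367 nucleotides) 12 rose, with a median of 0.41. Within the earlier runs the medians were 1.04 and 0.80 and the correlation -0.35 (-0.12 across all genes). In Myc against normal the correlation was -0.65 over all samples (-0.27 across all genes). Within the earlier runs it was -0.59 there (-0.24 across all genes). The medians of the shorter and longer members in Myc against normal were 1.02 and 0.44 over all samples, and 1.06 and 0.63 within the earlier runs.

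Myc replicate 5 stood out in this respect. It was the highest of the 8 Myc lymphomas for 17 members, with a median coding length of 981 nucleotides, and the lowest for 16, with a median of 2567. Against the median of the other 7 Myc lymphomas its log2 CPM ranged from 1.83 (Nop10) to -1.99 (Utp20), with a Spearman correlation with coding length of -0.85 across the 46 members. Without this library the correlation of coding length with the difference of mean log2 CPM between Myc and vector lymphomas was -0.45, and -0.59 with it. The medians of that difference for the shorter and longer members were 0.80 and 0.53 without it, and 0.92 and 0.39 with it. The part of coding length in the calls was not tested.

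**Figure D5:**
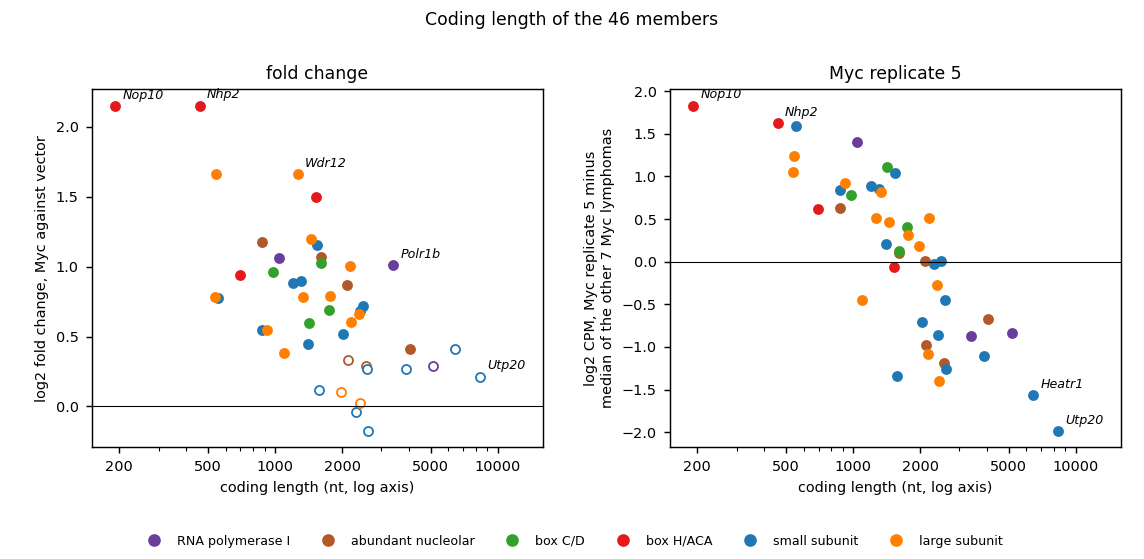
Coding length of the 46 members (x axis, log scale) against the log2 fold change of Myc against vector (left; open points were not called) and against the log2 CPM of Myc replicate 5 minus the median of the other 7 Myc lymphomas (right), coloured by role. Of the 12 open points in the left panel, 11 belong to the 23 longer members, and the right panel runs from 1.83 (Nop10) to -1.99 (Utp20).

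Beyond the members, 129 other genes of the pathway were listed by name and 127 found. In Myc against vector lymphomas 59 of the 127 rose, 12 fell and 56 were not called, with a median log2 fold change of 0.35 (unadjusted p under 0.05 for 62 higher and 12 lower). Across all genes tested, 26.6% rose and 21.9% fell. Of the small subunit factors 19 of 41 rose and 1 fell, of the large subunit factors 17 of 46 rose and 7 fell, of the RNA polymerase I genes 7 of 17 rose and 3 fell, of the small nucleolar particle factors 7 of 10 rose and of the exosome genes 9 of 13 rose and 1 fell. Within the earlier runs 9 of 127 rose and 0 fell, where 2.97% of all genes rose and 814 of 18505 fell. With the run term 42 rose and 0 fell, where 9.2% of all genes rose and 1742 of 17824 fell. None of the 12 falls was called in either setting.

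The 3 with the smallest p among those that rose were Utp4, a processome protein (1.01 ± 0.12, adjusted p = 1.06e-06), Nifk, a partner of the proliferation marker Ki-67 (1.10 ± 0.13, adjusted p = 2.15e-06), and Pa2g4, a protein that binds ribosomes (1.21 ± 0.15, adjusted p = 2.3e-06). Pa2g4 went from 140 ± 18.3 CPM in vector to 324 ± 83.7 CPM in Myc lymphomas (SD, n = 8 each). Among those that fell the first 3 were Znf622, known in yeast for the last steps of large subunit maturation (-1.11 ± 0.18, adjusted p = 6.42e-05), Ttf1, which ends transcription by RNA polymerase I (-1.12 ± 0.21, adjusted p = 0.000245), and Ddx54, a helicase (-0.57 ± 0.13, adjusted p = 0.00101). Within the earlier runs these were at -0.45, -0.43 and -0.28 and not called.

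In vector lymphomas against normal B cells 2 of the 127 rose and 0 fell with edgeR's test (7 and 4 at an unadjusted p under 0.05, and 4 and 0 with DESeq2): Mphosph6, an exosome partner (0.84 ± 0.24, adjusted p = 0.0282), and Tsr2, in yeast a chaperone of a ribosomal protein (0.52 ± 0.17, adjusted p = 0.0456). Over all genes 7.46% rose and 3.36% fell. Neither was called within the earlier runs. The number that rose was 0 without normal replicate 3 or 4 or vector replicate 3, 1 without normal replicate 1 or 2, vector replicate 1, 2, 4, 5 or 6 or Myc replicate 8, and 4 without Myc replicate 5. The number that fell was 2 without vector replicate 7 and 1 without Myc replicate 5. Next among those with positive values was Ddx24 (0.49 ± 0.17, adjusted p = 0.0655), and among those with negative values the smallest p-values belonged to Polr1e (-0.42 ± 0.16, adjusted p = 0.105), Polr1f (-0.35 ± 0.16, adjusted p = 0.175) and Utp11 (-0.45 ± 0.20, adjusted p = 0.181), none of them called. In Myc lymphomas against normal B cells 48 rose and 3 fell, where 21.5% of all genes rose and 17.9% fell. The number that fell was 0 within the earlier runs, where 1475 of 18505 genes fell, and 7 with library totals. It was 1 without normal replicate 1, 3 or 4 or Myc replicate 4, and 5 without vector replicate 7 or Myc replicate 1 or 5. Pa2g4 (1.27 ± 0.19, adjusted p = 4.95e-05), Rcl1 (1.11 ± 0.17, adjusted p = 7.44e-05) and Utp4 (0.91 ± 0.15, adjusted p = 9.66e-05) led those that rose. Ttf1 (-0.95 ± 0.25, adjusted p = 0.00532), Ddx55 (-0.55 ± 0.20, adjusted p = 0.0345) and Tgs1, which methylates the cap of some small nucleolar RNAs (-0.59 ± 0.22, adjusted p = 0.0403), were the 3 that fell.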

How the data were processed

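The authors deposited 1 table of raw counts per Ensembl gene for the 20 samples, with whole-number read counts for 37620 genes and 5 lines for reads assigned to no gene. Per the submitters' processing notes mm9 and NCBIM37 are the builds, and the tools are BWA 0.7.5a, Picard 1.119 and HTSeq, without their roles. Those 5 lines stayed out of library sizes and tests. Multiply aligned reads, 1 of these lines, made up 14.25% to 40.33% of a library and reads on no gene 8.263% to 23.98%. No source used here gives the strand setting, so reads of overlapping or antisense genes cannot be told apart. Symbols came from GENCODE vM21 and named 32897 identifiers, with Polr1f, Polr1g, Polr1h and Znf622 found under older symbols. Noc2l, Taf1a and Riok2 were not analysed here.

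Groups follow the labels. Genes with enough counts were kept with filterByExpr (17824 genes), scaled by TMM and tested two-sided with the quasi-likelihood F test of edgeR 4.0.16 in R 4.3.3, with the 3 groups in 1 fit and Benjamini-Hochberg adjustment over all genes at 0.05. The SE given for a log2 fold change is its absolute value divided by the square root of the F statistic of that test. The common biological coefficient of variation was 0.465. CPM use the TMM library sizes, and log2 CPM a prior count of 2. Pair ratios were computed after adding 0.5 to each count. The fit and the permutation test were tested on simulated data. The members and lists were chosen with earlier results of these data known.

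Values are given for 20 members set by name, for the 2 with the smallest p in each role group, for each member called lower and each not called in Myc against vector, and for the 3 other pathway genes with the smallest p in each direction of each comparison. The sample descriptions name 4 instruments with run numbers, and the titles hold 6 prefixes. Alternatives were RLE scaling, library totals, no filter, DESeq2 1.42.0, only the 2 groups compared, the earlier runs, the run set as a term, 1 count added in ratios, and each library left out. Promoter windows come from another build (GRCm38.p6) than the counts, and no count coordinates are used. Read counts cover counting error only.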

Additional observations from a re-analysis of the deposited data

Results flagged for a closer look

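Among 72 groups of 4 or 8 samples (23 members and their summed level, each in the 3 groups), 19 had a sample far from the rest by Dixon's test at the 95% level, which chance gives for about 1 in 20 groups. Myc replicate 5 was that sample in 7 groups, Myc replicate 1 in 5, normal replicate 1 in 3, vector replicate 5 in 2, and vector replicates 3 and 7 in 1 each. These groups share their libraries, so the 72 are not independent.

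Myc replicate 5 was high for Polr1c (224 CPM, with 128 in the next Myc lymphoma), Fbl (213 and 146), Nhp2 (413 and 176) and Nop10 (334.5 and 124). It was low for Polr1a (68.2 CPM, with 115 in the next), Polr1b (52.2 and 89.7) and Heatr1 (39.1 and 94.0). The 4 high genes have shorter coding sequences than the 3 low ones.

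Myc replicate 1 was high for Nolc1 (402 CPM, with 212 in the next), Nop58 (220.1 and 153), Dkc1 (303.8 and 154.5) and Nop2 (161.5 and 124), and for the summed level of the members (8604 CPM, with 6541 in the next). Normal replicate 1, the normal sample of the later runs, was high for Ncl (862 CPM, with 489 in the next), for Nop58 (90.98 and 73.3) and for the summed level of the members (4600 CPM, with 3570 in the next).

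Among vector lymphomas, replicate 5 was high for Nle1 (25.3 CPM, with 20.8 in the next) and low for Nop58 (57.2 CPM, with 67.9 in the next). Vector replicate 3 was high for Gar1 (36.7 CPM and 29.3) and vector replicate 7, of the earlier runs, for Nop10 (84.8 CPM and 41.2). No cause was tested for any of these.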

How the results depend on the processing

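In Myc against vector lymphomas the number of members higher was 32 to 34 with RLE scaling, library totals, no filter, DESeq2, only the 2 groups and the run term, 32 to 38 with each library left out and 16 within the earlier runs, where 8 Myc and 2 vector samples remain. The members' median moved to 0.90 in the earlier runs and 0.89 with the run term. Of the 20 called members given with their values in each normal sample, 11 stayed called in the earlier runs and 19 with the run term, which called 4 more. The sign changed for Utp14a (0.36 in the earlier runs, 0.38 with the run term, -0.186 to 0.021 leaving out 1 library), Ddx10 (0.30 in the earlier runs, 0.36 with the run term), Noc3l (-0.032 without a filter, -0.030 to 0.145 leaving out 1 library) and Ddx18 (-0.036 to 0.155 leaving out 1 library), none of which was called. In vector against normal, library totals gave 2 members lower and leaving out 1 library 0 to 1, and the median was -0.14 with library totals, -0.13 in the earlier runs and -0.15 with the run term. In Myc against normal 23 to 36 members were higher over these settings and the median with library totals was 0.54. Heatr1, not called there, was at -0.12 with library totals, -0.002 without a filter and -0.028 to 0.194 leaving out 1 library. Library totals moved the median of all genes from -0.03 to -0.18 in vector against normal and from 0.08 to -0.11 in Myc against normal. Pairs with a different ratio stayed at 5 and 0 with 1 count added, and leaving out 1 library gave 5 to 7 in Myc against vector and 0 to 2 in vector against normal. The cause was not tested. Each member had at least 251 counts in every sample, so depth left none of the 46 out of the test. No paired analysis was possible because the title numbers repeat within groups and each prefix lies in 1 group, so no number pairs samples across groups.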

Other observations

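The link between coding length and a library's deviation from its group was not confined to Myc replicate 5. For each library, the log2 CPM of the 46 members minus the median of the other libraries of its group was set against coding length, as a description with no test. The Spearman correlation was -0.85 in Myc replicate 5, -0.75 in vector replicate 7, -0.62 in vector replicate 3, -0.48 in Myc replicate 7 and -0.47 in vector replicate 8, where shorter members were relatively high. It was 0.62 in Myc replicate 6 and 0.60 in normal replicate 1, where longer members were. Vector replicates 7 and 8 are the vector lymphomas of the earlier runs, and normal replicate 1 is the normal sample of the later runs. Vector replicate 3 is also of the later runs, and Myc replicates 5, 6 and 7 are of the earlier runs, as all Myc lymphomas are. The spread of these deviations over the members was widest in Myc replicate 5 (SD 0.96), followed by vector replicate 7 (0.50), and was 0.16 to 0.38 in the other 18 libraries.

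Myc replicate 1 was the highest Myc lymphoma for 23 of the 46 members and Myc replicate 5 for 17. In Myc replicate 1, 43 of 46 members lay above the median of the other Myc lymphomas, by a median of 0.42 on the log2 scale. In Myc replicates 6 and 8, 7 and 5 of 46 did.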
